A study of Mus musculus with 4 samples.

Results

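The genes followed here are 10 members of a 22-gene list of conserved targets of the transcriptional co-activators YAP and TAZ: Ankrd1, Axl, F3, Crim1, Fjx1, Nt5e, Dock5, Nuak2, Arhgef17 and Myof. They were taken by symbol from the 28693 genes listed in the count matrices, where each symbol stands once. Each gene is described singly, across cell lineages, across control and LATS1/2-deleted mammary glands, across luminal cells with and without a reporter UMI, and across cycling and non-cycling luminal cells.

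Single-cell RNA libraries (10X Genomics, 3' end counting of unique molecular identifiers, UMIs) were made from the mammary glands of 4 adult nulliparous mice, 1 library per mouse. The 2 control mice (CTL, labelled WT) carried floxed alleles of Lats1 and Lats2 (both f/f) and 1 copy of R26-lsl-EYFP, with no Cre. The 2 LATS1/2-KO mice carried the same floxed alleles and Krt8-CreERT2, a tamoxifen-dependent Cre under the promoter of a luminal keratin. The KO mouse of replicate 1 was heterozygous and that of replicate 2 homozygous for lsl-EYFP, a fluorescent reporter that is silent until Cre removes its stop cassette. All 4 mice received 5 doses of 2 mg tamoxifen and were collected 7 days after the last dose, and live cells were sorted with no further selection. Since the controls had tamoxifen and floxed alleles but no Cre, an effect of Cre itself and an effect of the deletion cannot be told apart. Stromal and immune cells of the KO glands lie outside the reach of the Krt8 promoter.

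LATS1 and LATS2 are the kinases at the end of the Hippo cascade. They phosphorylate YAP and TAZ, which are then held in the cytoplasm or degraded. Without this restraint YAP and TAZ enter the nucleus, where they bind DNA through TEAD transcription factors. Ankrd1 and Axl are among the targets most often read as a sign of YAP and TAZ activity in epithelial cells. In the mammary gland, ducts hold an inner luminal layer, made of hormone-responsive (ER+) and secretory-progenitor (ER-) cells, and an outer contractile basal layer, and the pathway is known for its part in the balance between these layers.

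TEAD factors recognise the letters GGAATG, so these letters were looked for on either strand in the 250 bases before the RefSeq transcription start (GRCm38.p6). Of the 10 genes, 6 have an entry in that table (Ankrd1, Axl, Crim1, F3, Myof and Nt5e), and 3 of the 6 hold the letters, against 12.6% of all 32851 promoters of the same length. Ankrd1 holds 2 matches, which begin 210 and 123 bases before the start, and 0.992% of promoters hold 2 or more. Axl holds 1 match at 233 bases and Crim1 1 at 79 bases, while the windows of F3, Myof and Nt5e hold none. These 3 windows are printed because they hold the letters, in a gene that rose furthest in luminal cells (Ankrd1), one that fibroblasts and basal cells also express (Axl) and one whose ER- and ER+ effects had opposite signs (Crim1). Each is written 5′ to 3′ on the strand of its gene, with the letters of the match in capitals. They lie at chr19:36119845-36120094 (minus strand, Ankrd1), chr7:25788734-25788983 (minus strand, Axl) and chr17:78199998-78200247 (plus strand, Crim1). For Ankrd1 and Nt5e the RefSeq start differs from the GENCODE start, and their windows lie inside the GENCODE spans given below. A match is a description of the sequence and not evidence of binding.
Ankrd1: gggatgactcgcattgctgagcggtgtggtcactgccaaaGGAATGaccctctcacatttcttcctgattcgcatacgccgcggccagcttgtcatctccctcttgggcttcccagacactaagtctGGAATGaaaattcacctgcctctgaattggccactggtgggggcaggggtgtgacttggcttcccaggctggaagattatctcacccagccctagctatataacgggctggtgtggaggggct
Axl: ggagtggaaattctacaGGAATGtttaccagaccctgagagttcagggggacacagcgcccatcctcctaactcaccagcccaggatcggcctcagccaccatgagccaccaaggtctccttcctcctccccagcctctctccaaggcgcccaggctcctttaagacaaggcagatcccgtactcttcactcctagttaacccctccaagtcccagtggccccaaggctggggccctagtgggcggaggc
Crim1: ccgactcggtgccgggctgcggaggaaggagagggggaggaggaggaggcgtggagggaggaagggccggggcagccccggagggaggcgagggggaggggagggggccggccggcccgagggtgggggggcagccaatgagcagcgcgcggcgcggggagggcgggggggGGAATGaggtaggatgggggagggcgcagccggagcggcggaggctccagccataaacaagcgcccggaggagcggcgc

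The libraries kept 3515 to 5272 cells and 38792520 to 46810771 UMIs each, 18200 cells of 20324 barcodes in all, and pairs of libraries shared at most 12 barcodes. Cells were gated into lineages from marker lists that hold none of the 10 genes. Levels are given as CPM, a gene's UMIs on a counts-per-million scale of the UMIs summed over the cells of a lineage in 1 library. The 3' counts compare libraries for a gene but not genes with each other. Orders of lineages cover those with at least 20 cells in each library of the group, 7 in CTL and 9 in KO. Lats1 stood at 24 and 23.9 in luminal cells of the CTL libraries and at 15.5 and 16.5 in those of the KO libraries (log2 fold change -0.80 ± 0.087 SE, adjusted p = 0.00128), and Lats2, itself a target on the 22-gene list, stood at 13.8 and 15.0 and at 27.7 and 29.9 (0.79 ± 0.092, 0.00159). These 3' tags may lie outside the deleted parts, so they check the labels only in part. EYFP, at 0.274 and 0.324 in CTL and 92.9 and 141 in KO luminal cells, follows the labels. Free RNA made up an estimated 3.34 and 3.07% of luminal UMIs in CTL and 8.32 and 7.47% in KO, and the summed level of all 8 fibroblast markers in ER- cells went from 13.7 and 24.4 CPM in CTL, with 8 and 7 of them detected, to 266 and 332 CPM in KO, with 8 of 8 detected. With free RNA subtracted, 9 members were called in luminal cells and 8 in ER- cells, as many as without, but 5 in place of 8 in ER+ cells and 2 in place of 4 in basal cells. In basal cells the estimate came to 15.2 and 22.8% in CTL and 12.7 and 10.9% in KO. For F3 it exceeded the whole level of CTL 2 basal cells, so the basal subtraction is a weak check. The labels do not say whether replicate numbers pair the mice. With 2 mice against 2, an exact permutation test cannot go below 0.33, so tests come from edgeR's quasi-likelihood model of the sums. Adjusted p-values are Benjamini-Hochberg over all genes tested, called under 0.05. For KO against CTL they rest on the spread between these mice. Reporter, cycling and lineage-difference tests take the mouse as a block and rest on how alike the differences within these mice are. In both, the spread is moderated across genes.

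Luminal cells numbered 4292, 3123, 3126 and 2883 in CTL 1, CTL 2, KO 1 and KO 2, the order used throughout. They comprise cells with a summed epithelial list of at least 0.3 times the library level and neither a stromal nor a basal call. Cells with a weaker epithelial level or with stromal markers were left out. The make-up of the luminal cells differed between the groups. ER- cells went from 2847 and 2091 to 1512 and 1621, and ER+ cells from 1235 and 922 to 470 and 165. Unresolved cells, with under 3 markers of either luminal list or as many of both, numbered 210 and 110 in CTL and 1144 and 1097 in KO. In the KO libraries these unresolved cells stood below their library's level for the ER- list (1881 and 2005 against 8094 and 8608 CPM), the ER+ list and the basal list alike and above it for the epithelial list (28712 and 26673 CPM), so they are counted as luminal by exclusion and not by luminal markers. A luminal sum therefore mixes change within a type with change in the share of the types, and the ER- and ER+ sums are given beside it.

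In luminal cells of the KO glands, 7 of the 10 genes rose and 2 fell, where 59.0% of the 14464 genes tested passed in either direction (30.6% higher, 28.4% lower). Their median log2 fold change was 1.85, beside 0.00336 over all genes tested. Ankrd1, Fjx1 and Nt5e rose most, Axl, Nuak2 and Myof rose by log2 fold changes of 1.80 to 2.86, and Crim1 rose least. F3 and Dock5 fell, and Arhgef17 was not called. In ER- cells 6 rose and 2 fell (background 53.4%), and in ER+ cells 7 rose and 1 fell (background 29.6%). Ankrd1, Axl, Fjx1, Nt5e, Nuak2 and Myof rose in both. In ER+ cells 4 members in place of 8 were called under the stricter gate or without KO 2, and 5 with free RNA subtracted, and of the 6 genes named Myof alone was still called there under each of these and with any other library left out. Fold changes are relative to TMM scaling. Scaled to library totals alone, the median gene moved by 0.22 on the log2 scale in luminal cells and 0.352 in ER- cells, and 66.6% of the calls in luminal cells and 75.6% of those in ER- cells were higher, in place of 51.9 and 51.5%.

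**Figure D1:**
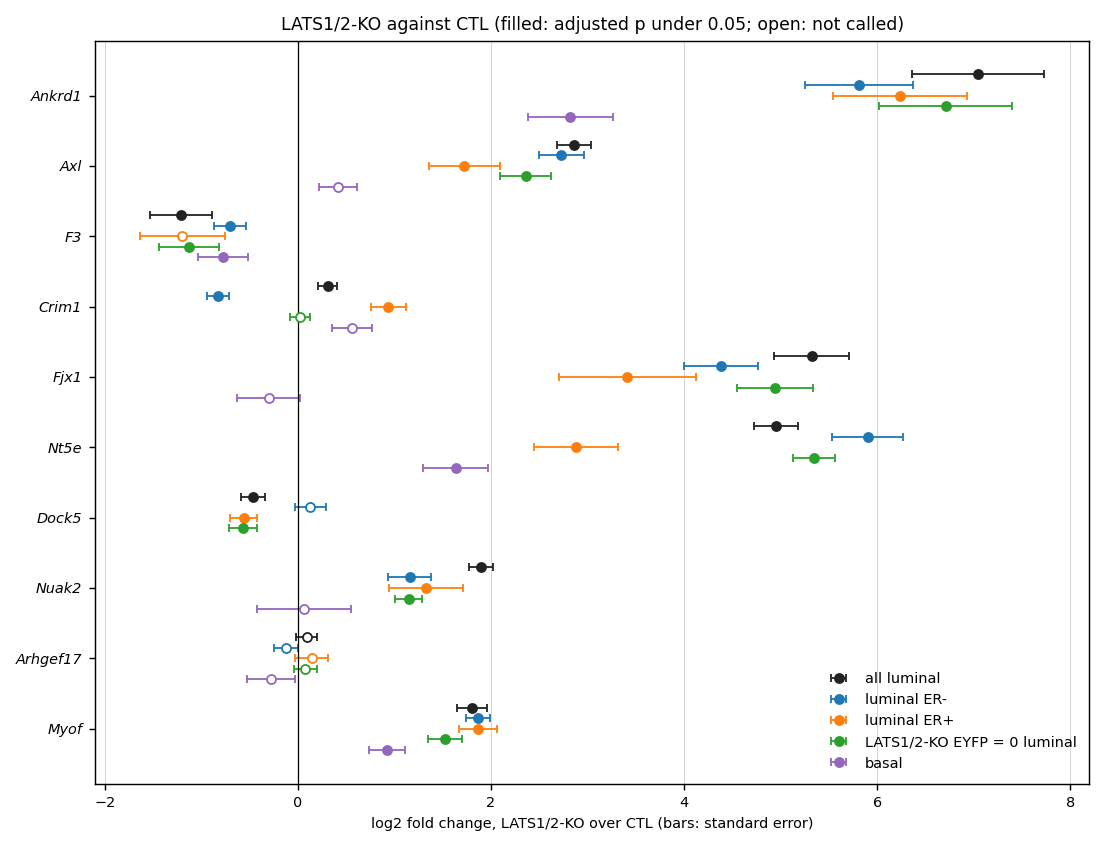
Log2 fold change of KO over CTL with its standard error (horizontal axis) for the 10 genes in all luminal, ER- and ER+ cells, in luminal cells of the KO glands without an EYFP UMI against CTL luminal cells, and in basal cells. Filled points have an adjusted p under 0.05. Ankrd1, Fjx1 and Nt5e stand farthest to the right in luminal cells (7.05, 5.32 and 4.95), Arhgef17 stays near 0 and its sign in ER- cells turns under library totals, and Crim1 lies on opposite sides in ER- (-0.83) and ER+ cells (0.94).

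Ankrd1 (chr19:36111961-36120099, minus strand, all positions from GENCODE vM21 on GRCm38) encodes an ankyrin repeat protein that works in the nucleus as a transcriptional cofactor and in muscle as part of the sarcomere. Its level in luminal cells was 3.18 and 0.524 in CTL and 321 and 258 in KO (log2 fold change 7.05 ± 0.69 SE, adjusted p = 0.000927). Both KO mice lay far above both CTL mice, and in ratio the CTL mice differed from each other more than the KO mice did. ER- cells held 4.79 and 0.730 in CTL and 230.3 and 176 in KO (log2 fold change 5.81 ± 0.56 SE, adjusted p = 0.000228), and unresolved cells 4.84 and 0 in CTL and 504 and 385 in KO. The unresolved cells gave 66.7 and 65.6% of the luminal Ankrd1 UMIs of the KO glands, and 42.5 and 44.0% of the UMIs of all genes. ER+ cells held 0.488 and 0.293 in CTL and 45 and 13.5 in KO (log2 fold change 6.24 ± 0.69 SE, adjusted p = 0.00337), and free RNA alone would give 22.1 and 16.8 there. KO 2 thus lay below the free RNA level in ER+ cells, and with free RNA subtracted Ankrd1 no longer passed the low-count filter in that lineage.

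Outside the luminal lineage, Ankrd1 was highest in basal cells, with 18.8 and 1.59 in CTL and 71.8 and 98.6 in KO (log2 fold change 2.82 ± 0.44 SE, adjusted p = 0.00104). DESeq2 did not call it (adjusted p = 0.131), nor did the stricter gate (0.306) or the sums with free RNA subtracted (0.0529). In KO 2, 25 EYFP+ cells in the basal gate gave 85.5% of the basal Ankrd1 UMIs and 14.4% of the basal UMIs of all genes. In KO 1, 12 such cells gave 15.8 and 4.20%. These cells held Krt8, a luminal keratin, at 6026 and 5860 CPM, against 1090 and 1156 in the EYFP = 0 basal cells of the same glands. Basal cells with EYFP = 0 held 63.1 and 16.7 in KO, and against all CTL basal cells the difference was not called (log2 fold change 1.69 ± 0.77, adjusted p = 0.131). Fibroblasts, endothelial cells and macrophages of the KO glands held 14.5 and 4.37, 12 and 5.27 and 9.34 and 8.67, each below the level that free RNA would give (16.3 and 6.25, 20.3 and 9.72, 25.6 and 11.4). CTL fibroblasts and endothelial cells held 0 UMIs, which allows up to 8.31 and 7.39 CPM over the pooled CTL cells. In KO the order of the lineages was unresolved, ER-, basal and ER+, with no overlap down to basal cells and overlapping neighbours below them, and in CTL the lineages from basal to ER+ all overlapped their neighbours.

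Axl (chr7:25757273-25788705, minus strand) encodes a receptor tyrosine kinase of the TAM family, bound by the ligand Gas6. Luminal cells held 2.33 and 1.90 in CTL and 19.3 and 16.5 in KO (log2 fold change 2.86 ± 0.18 SE, adjusted p = 0.000312), with no overlap between the groups. The level in ER- cells was 0.996 and 0.958 in CTL and 8.55 and 7.91 in KO (log2 fold change 2.73 ± 0.23 SE, adjusted p = 0.00014), of which free RNA would give 2.81 and 3.44 in KO. The rise in ER- cells was still called with free RNA subtracted. In ER+ cells Axl went from 4.45 and 3.16 to 9.49 and 18.1 (log2 fold change 1.72 ± 0.37 SE, adjusted p = 0.0194), and the call was lost without KO 2 (adjusted p = 0.0667) and under the stricter gate (0.0689). Unresolved cells reached 33.4 and 26.1 in KO. Of the CTL lineages with at least 20 cells per library, fibroblasts carried most Axl, 149.8 and 168 in CTL and 204 and 208 in KO (log2 fold change 0.51 ± 0.27, adjusted p = 0.316), and basal cells followed with 49.3 and 52.4 in CTL and 77.2 and 66.8 in KO (0.42 ± 0.20, 0.145). Neither difference was called. KO macrophages, where TAM receptors serve the uptake of dead cells, held 84.0 and 85.4, and the CTL libraries had 10 and 7 macrophages, under the minimum of 20 for a value. The macrophage gate of KO 2 also held neutrophil markers, 3 of 3 detected at a summed 3748 CPM against 237 in the whole library, while that of KO 1 held 2 of 3 at 31.7 CPM against 26.7. Their part in the macrophage levels of Axl, Nuak2 and Dock5 was not tested. KO perivascular cells held 108 and 208, which overlaps the fibroblast range. Below these, macrophages, basal cells and unresolved cells of the KO glands followed each other with no overlap, so the raised luminal level stayed under that of KO basal cells and fibroblasts.

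Nt5e (chr9:88327197-88372092, plus strand) encodes the surface enzyme CD73, which makes adenosine from AMP. It was nearly absent from CTL luminal cells, with 12 and 15 UMIs in all, or 0.274 and 0.374 CPM, and stood at 12.4 and 11.1 in KO (log2 fold change 4.95 ± 0.22 SE, adjusted p = 0.00016). The 2 KO mice lay close together, and ER- cells carried the highest luminal level, 18.5 and 14.0 in KO against 0.115 and 0.319 in CTL (log2 fold change 5.90 ± 0.37 SE, adjusted p = 4.54e-05). ER+ cells reached 3.84 and 3.51 from 0.488 and 0.468 (log2 fold change 2.88 ± 0.44 SE, adjusted p = 0.00749), a call lost without KO 1 (adjusted p = 0.0694), and free RNA would give 1.63 and 1.36 there. The unresolved cells gave 30.6 and 34.6% of its luminal UMIs in KO, below their 42.5 and 44.0% of the UMIs of all genes. Endothelial cells, which use CD73 widely, held 62.2 and 5.08 in CTL and 193 and 129 in KO (log2 fold change 2.27 ± 0.52 SE, adjusted p = 0.0246). The CTL mice, with 42 and 35 such cells, lay far apart, and neither DESeq2 (adjusted p = 0.538) nor the stricter gate (0.0558) called the difference. In basal cells Nt5e rose from 8.22 and 17.5 to 37.8 and 42.8 (log2 fold change 1.63 ± 0.34 SE, adjusted p = 0.00481), and the rise was also called in EYFP = 0 basal cells (log2 fold change 1.71 ± 0.34, adjusted p = 0.00443). Lymphocytes held 45.3 and 41.5 in CTL and 122 and 31.1 in KO and did not pass the low-count filter. In KO endothelial cells led with no overlap, lymphocytes, basal cells and macrophages overlapped each other, and ER- cells lay apart from both these and the unresolved cells.

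Fjx1 (chr2:102449366-102452499, minus strand, a gene of 1 exon) is the mammalian homologue of Four-jointed, a fly Golgi kinase of the Fat and Dachsous branch of the Hippo pathway. CTL luminal cells held 29 and 9 UMIs, or 0.663 and 0.225 CPM, and KO luminal cells 18.5 and 23.7 (log2 fold change 5.32 ± 0.39 SE, adjusted p = 0.000464). ER- cells stood at 0.652 and 0.183 in CTL and 11.1 and 12.1 in KO (log2 fold change 4.38 ± 0.39 SE, adjusted p = 0.000161), ER+ cells at 0.671 and 0.293 in CTL and 2.94 and 9.03 in KO (log2 fold change 3.41 ± 0.71 SE, adjusted p = 0.0185), and unresolved KO cells at 31.2 and 39.0. KO 1 came close to the free RNA level of 2.01 in ER+ cells, where the call was lost without KO 2 (adjusted p = 0.0857) and under the stricter gate (0.0799) and where Fjx1 did not pass the filter with free RNA subtracted. Fjx1 also rose in endothelial cells. Their gate was not divided into subtypes, so a change in shares and a change within cells cannot be told apart. Both CTL libraries held 0 Fjx1 UMIs in their 42 and 35 endothelial cells and the KO libraries 218 and 82, or 201 and 72.0 CPM, at least 18.3-fold higher over the pooled cells when 3 UMIs are taken for the CTL total (edgeR adjusted p = 0.0068). Free RNA would give 1.85 and 1.21 there, and the endothelial level exceeded that of each of the other 8 KO lineages. Basal cells and fibroblasts expressed Fjx1 in both groups, at 19.97 and 39.7 in CTL and 25.9 and 23.6 in KO basal cells (adjusted p = 0.528) and at 15.8 and 46.5 in CTL and 42.9 and 32.2 in KO in fibroblasts (0.531), with neither called. In KO fibroblasts and unresolved luminal cells, which overlapped, came next after endothelial cells.

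Nuak2 (chr1:132316126-132333488, plus strand) encodes an AMPK-related kinase that acts on actomyosin. Its luminal level was 4.92 and 4.89 in CTL, nearly the same in both mice, and 19.6 and 23.0 in KO (log2 fold change 1.90 ± 0.12 SE, adjusted p = 0.000348). Most of this came from the unresolved cells, which held 4.84 and 7.42 in CTL and 34.3 and 36.0 in KO and gave 74.3 and 68.9% of the luminal UMIs of Nuak2 in the KO glands. In ER- cells Nuak2 rose from 3.22 and 3.42 to 7.82 and 10.9 (log2 fold change 1.16 ± 0.22 SE, adjusted p = 0.00408). In ER+ cells the KO mice were far apart, at 11.8 and 28.1 against 7.62 and 6.62 in CTL (log2 fold change 1.33 ± 0.38, adjusted p = 0.0458), and the call was lost without CTL 2 (0.0694), without KO 2 (0.0965), with free RNA subtracted (0.0649) and under the stricter gate (0.162). KO macrophages held the highest level of any KO lineage, 52.3 and 58.7, followed by the unresolved cells, each with no overlap. In CTL each lineage down to the unresolved cells overlapped a neighbour, and ER- cells, the lowest, stood apart. Basal cells stood at 9.40 and 6.35 in CTL and 6.48 and 11.0 in KO (adjusted p = 0.94), with no call.

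Myof (chr19:37899036-38043577, minus strand) encodes myoferlin, a membrane protein of the ferlin family with a part in membrane repair and receptor recycling. Luminal cells held 38.7 and 50.8 in CTL and 196 and 167 in KO (log2 fold change 1.80 ± 0.16 SE, adjusted p = 0.000713). The rise was of like size in both luminal types. ER- cells went from 24.9 and 20.4 to 106 and 103 (log2 fold change 1.86 ± 0.13 SE, adjusted p = 5.98e-05) and ER+ cells from 59.6 and 89.9 to 269.6 and 295 (log2 fold change 1.86 ± 0.20 SE, adjusted p = 0.00298), and the test of the difference gave -0.07 ± 0.24 on the log2 scale (adjusted p = 0.879). ER+ cells were the highest lineage for Myof in KO, with unresolved cells next at 264 and 222 and no overlap, and in CTL they overlapped endothelial cells at the top. In basal cells Myof also rose, from 45.8 and 55.6 to 98.8 and 103 (log2 fold change 0.92 ± 0.19 SE, adjusted p = 0.00447), a call lost under DESeq2 (adjusted p = 0.0591) and with sums thinned to equal depth (0.0531). Fibroblasts stood at 27.6 and 46.5 in CTL and 86.5 and 57.8 in KO (log2 fold change 1.19 ± 0.43, adjusted p = 0.147). A call arose without KO 2 (0.0217) or with the replicate number as a block (0.047). Endothelial cells, where Myof is known to be abundant, held 110.1 and 71.1 in CTL and 114 and 104 in KO (adjusted p = 0.6).

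Crim1 (chr17:78200248-78376592, plus strand) encodes a transmembrane protein with cysteine-rich repeats that binds bone morphogenetic proteins. Its luminal sums, 47.4 and 46.4 in CTL and 62.2 and 73.0 in KO, differed little and were called (log2 fold change 0.31 ± 0.10 SE, adjusted p = 0.0397), and the call was lost without CTL 1 (0.12), CTL 2 (0.176) or KO 2 (0.109), with the replicate block (0.068) and with a 10% mitochondrial limit (0.0696). Under this sum lay opposite changes. In ER- cells Crim1 fell from 65.0 and 67.8 to 42.9 and 51.6 (log2 fold change -0.83 ± 0.12 SE, adjusted p = 0.00109), and in ER+ cells it rose from 18.8 and 19.6 to 31.9 and 46.1 (log2 fold change 0.94 ± 0.18 SE, adjusted p = 0.0152). The groups overlapped in neither type, and the difference between the 2 effects was -1.82 ± 0.15 on the log2 scale (adjusted p = 0.000342). The ER+ call was lost under the stricter gate (adjusted p = 0.0552). Unresolved cells held 55.7 and 36.2 in CTL and 91.9 and 101 in KO and gave 62.8 and 60.9% of the luminal Crim1 UMIs of the KO glands. Endothelial cells were the highest lineage in both groups, at 325 and 330.2 in CTL and 164 and 191 in KO (log2 fold change -0.84 ± 0.22 SE, adjusted p = 0.0389). In KO perivascular cells, at 152 and 165, overlapped them. The endothelial fall was lost without CTL 2 (0.0611), KO 1 (0.269) or KO 2 (0.0717), under DESeq2 (0.178), without the low-count filter (0.126) and with free RNA subtracted (0.0589), although the 4 values do not overlap. Basal cells held 49.3 and 42.9 in CTL and 63.7 and 81.1 in KO (adjusted p = 0.0709), and passed with library totals (0.0434) or without the low-count filter (0.0321).

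F3 (chr3:121723537-121735048, plus strand) encodes tissue factor, the cell-surface protein that starts blood coagulation. It fell in luminal cells, from 149 and 288 in CTL to 124 and 94.3 in KO (log2 fold change -1.21 ± 0.32 SE, adjusted p = 0.0227), and CTL 1 lay nearer to both KO mice than to CTL 2. The call was lost without KO 2 (adjusted p = 0.0852). ER- cells held 126 and 161 in CTL and 125 and 97.8 in KO (log2 fold change -0.70 ± 0.16, adjusted p = 0.00989), where KO 1 came close to CTL 1, and the call was lost with library totals (0.0854). ER+ cells held 186 and 452 in CTL and 175 and 108 in KO and were not called (-1.20 ± 0.44, 0.0875). The log2 fold change was -0.44 without CTL 2 (adjusted p = 0.257) and -1.71 without CTL 1, where it was called (0.00178), as it was without the low-count filter (0.039) and with sums thinned to equal depth (0.0428). In fibroblasts F3 fell from 678 and 438 in CTL to 71.9 and 96.2 in KO (log2 fold change -2.62 ± 0.33 SE, adjusted p = 0.0025). The CTL values rest on 65 and 25 cells, and without CTL 1 the call was lost (0.227) with a log2 fold change of -2.09. The fibroblast gate was not divided into subtypes, so a change in their shares and a change within cells cannot be told apart there. Basal cells held 81.0 and 54.0 in CTL and 33.5 and 50.9 in KO (log2 fold change -0.77 ± 0.26, adjusted p = 0.0462), lost without CTL 1 (0.388), without KO 1 (0.191), under DESeq2 (0.211), with library totals (0.0711), with a 10% mitochondrial limit (0.0548), at equal depth (0.0764) and with free RNA subtracted (0.871). Free RNA would give 22.4 and 64.2 in the CTL basal cells by the estimate used. In CTL 2 this exceeds the whole level of which it should be a part, so the subtraction is a weak check here. In EYFP = 0 basal cells F3 stood at 24.2 and 21.4 in KO and fell against CTL (log2 fold change -1.67 ± 0.26, adjusted p = 0.000965), whereas the 12 and 25 EYFP+ basal cells held 244 and 226. Fibroblasts, ER+, unresolved and ER- cells overlapped their neighbours in CTL, where fibroblasts led, and in KO, where fibroblasts came last of the 4.

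Dock5 (chr14:67752135-67933442, minus strand) and Arhgef17 (chr7:100869752-100932107, minus strand) encode guanine nucleotide exchange factors, proteins with a part in shaping the actin cytoskeleton. Dock5 stood at 15.2 and 18 in CTL and 14.6 and 13.3 in KO luminal cells (log2 fold change -0.46 ± 0.12 SE, adjusted p = 0.0233), without overlap and with a narrow gap. Its fall was not called without CTL 2 (adjusted p = 0.105), without KO 2 (0.0925) or with library totals (0.14). ER+ cells carried most luminal Dock5, 28.8 and 32.0 in CTL and 20.3 and 22.6 in KO (log2 fold change -0.56 ± 0.14 SE, adjusted p = 0.0314), and these cells were 1235 and 922 in CTL but 470 and 165 in KO. ER+ cells led in CTL with no overlap. The ER+ fall was lost when any 1 of the 4 libraries was left out (adjusted p = 0.0612, 0.126, 0.117 and 0.07 without CTL 1, CTL 2, KO 1 and KO 2), under DESeq2 (0.123), with the replicate block (0.0546) and at equal depth (0.0652). In ER- cells Dock5 held 6.55 and 7.21 in CTL and 9.20 and 9.81 in KO, with no call under TMM (0.13 ± 0.16, 0.518) and a higher one with library totals (0.47, 0.0401). KO macrophages held 23.3 and 32.0, above every other KO lineage for Dock5, and ER+ cells and lymphocytes overlapped below them.

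Arhgef17 had the smallest luminal log2 fold change of the 10, and its sign turned without CTL 1 (-0.02). It stood at 29.5 and 34.8 in CTL and 38.1 and 41.4 in KO luminal cells (log2 fold change 0.09 ± 0.10, adjusted p = 0.49), at 31.4 and 37.3 in CTL and 37.7 and 42.0 in KO in ER- cells (-0.12 ± 0.12, 0.437, and 0.22 with library totals) and at 26.2 and 32.0 in CTL and 29.6 and 38.1 in KO in ER+ cells (0.14 ± 0.17, 0.56). Basal cells held a like level, 42.3 and 36.5 in CTL and 29.1 and 39.5 in KO (adjusted p = 0.43), and KO perivascular cells, which are contractile, held the most, 88.7 and 104. The 4 epithelial lineages overlapped their neighbours in each group. Fibroblasts held 7.89 and 9.31 in CTL and 23.2 and 17.5 in KO, which do not overlap, and the test did not call them (1.37 ± 0.68, 0.285).

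**Figure D2:**
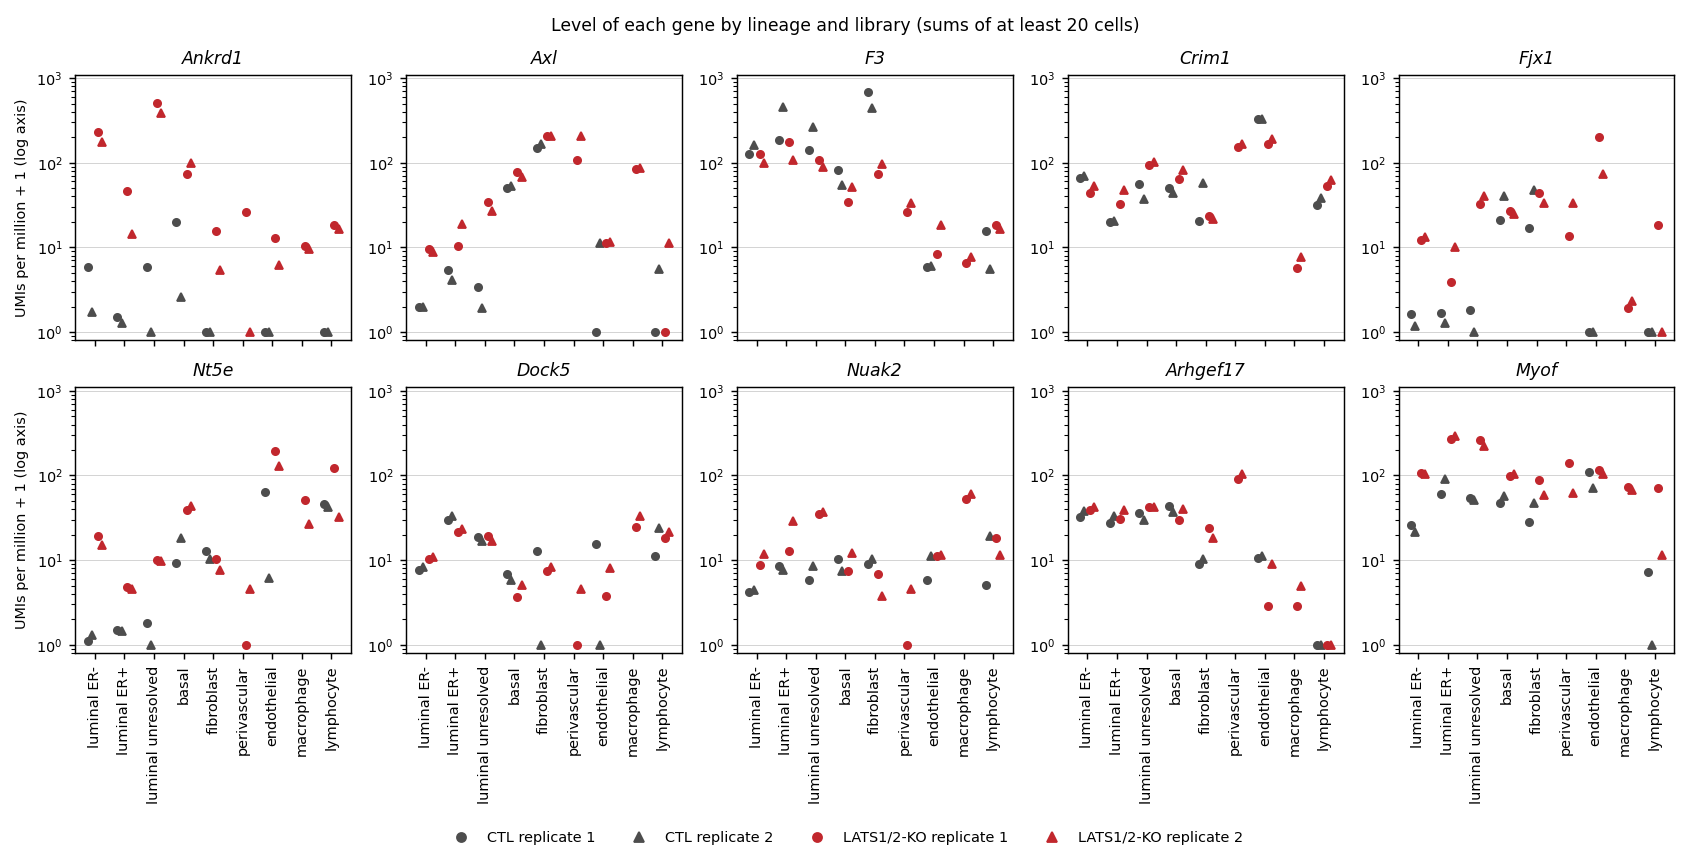
CPM plus 1 on a log axis (vertical) for each of the 10 genes in each lineage (horizontal), in sums of at least 20 cells. Circles are replicate 1, triangles replicate 2, grey CTL and red KO. Ankrd1 separates the groups in the luminal lineages (321 and 258 against 3.18 and 0.524 over all luminal cells), Fjx1 does so in endothelial cells as well (201 and 72.0 against 0 and 0), and Arhgef17 lies at like levels in both groups in the epithelial lineages.

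Whether an effect differed between lineages was tested with a lineage by condition term. Against basal cells, 6 of the 10 genes had a larger luminal effect and none a smaller one (background 13.4%), namely Fjx1 (log2 difference 5.45 ± 0.54, adjusted p = 4.93e-07), Ankrd1 (3.93 ± 0.58, 7.5e-05), Nt5e (3.16 ± 0.53, 0.00033), Axl (2.27 ± 0.28, 7.67e-06), Nuak2 (1.69 ± 0.55, 0.0485) and Myof (0.73 ± 0.22, 0.0281). DESeq2 did not call the last pair (adjusted p = 0.105 and 0.0902). Against fibroblasts, 4 differed (background 11.2%), namely Nt5e (5.29 ± 1.36, 0.00178), Fjx1 (4.48 ± 0.81, 1.13e-06), Axl (2.22 ± 0.33, 1.25e-09) and F3 (1.42 ± 0.27, 6.27e-06), which fell further in the undivided fibroblast gate. The F3 difference was not called by DESeq2 (0.181). Against endothelial cells, 2 differed (background 7.83%), Crim1 (1.02 ± 0.21, 0.00547) and Myof (1.39 ± 0.33, 0.0165). The luminal sum of Crim1 pools a fall in ER- cells and a rise in ER+ cells, and Crim1 also fell in endothelial cells. This difference was not tested within a luminal type. The endothelial rise of Fjx1 started from 0 UMIs, and its difference was not called with a standard error of 9.14 (adjusted p = 0.706). Between ER- and ER+ cells, the effect on Nt5e was larger in ER- cells (2.98 ± 0.63, 0.015) and that on Crim1 went the other way (-1.82 ± 0.15, 0.000342), 2 of 10 where 15.4% of genes passed. Scaling moved these tests' balance. Of all calls, 35.9, 48.6, 48.1 and 39.3% had the higher effect in luminal or ER- cells under TMM, and 68.3, 75.8, 71.1 and 79.1% with library totals. The median gene of these terms stood at -0.0985, -0.274, -0.302 and -0.0329 under TMM and at 0.192, 0.156, 0.0821 and 0.305 with library totals. Within single lineages outside the luminal gate, 3 of 9 members tested rose and 1 fell in basal cells (background 27.2%), 1 of 6 fell in fibroblasts (background 5.68%), 2 of 4 rose and 1 fell in endothelial cells (background 7.0%), and of lymphocytes Crim1 alone was tested and not called (log2 fold change 0.83 ± 0.56, adjusted p = 0.65, background 1.67%). In EYFP = 0 basal cells 2 of 8 rose and 1 fell (background 26.3%).

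The reporter was used to compare the 10 genes between KO luminal cells with and without a reporter UMI. Of the KO luminal cells, 699 and 820 held at least 1 EYFP UMI (EYFP+) and 2427 and 2063 none. EYFP+ cells were deeper, with a median of 13481 and 15101 UMIs against 7225 and 7104, and reporter detection grows with depth, so EYFP = 0 does not mean that Cre was inactive. Free RNA made up 6.71 and 5.19% of the UMIs of EYFP+ and 9.11 and 9.12% of those of EYFP = 0 cells. The make-up differed too. Unresolved cells were 458 of 699 and 518 of 820 EYFP+ cells, and 686 of 2427 and 579 of 2063 EYFP = 0 cells. The pooled comparison therefore mixes differences within luminal types with differences in their shares, and values within each type follow below. Between the 2 classes, with the mouse as a block, 6 genes were higher in EYFP+ cells and 2 lower (background 39.7% in either direction, 19.4% higher and 20.3% lower), and their median log2 fold change was 0.66, beside -0.00767 over all genes tested. Nuak2 was the most raised, from 12.4 and 12.9 in EYFP = 0 to 34.3 and 36.9 in EYFP+ cells (log2 fold change 1.49 ± 0.10 SE, adjusted p = 8.11e-07). Axl went from 15.1 and 10.1 to 27.6 and 25.4 (1.08 ± 0.12, 5.11e-05), Fjx1 from 15.6 and 16.9 to 24.3 and 33.2 (0.81 ± 0.11, 0.000173), Ankrd1 from 262 and 197 to 440.4 and 343 (0.77 ± 0.058, 1.73e-06), Crim1 from 51.8 and 58.8 to 83.2 and 92.7 (0.67 ± 0.074, 3.7e-05) and Myof from 166 and 132 to 256 and 214 (0.65 ± 0.063, 1.25e-05). Nt5e went the other way, from 15.2 and 15.7 to 6.59 and 4.67 (log2 fold change -1.48 ± 0.16 SE, adjusted p = 3.26e-05), although its rise against CTL had the smallest adjusted p of the 10. F3 was slightly lower, 129.6 and 102 against 113 and 83.5 (-0.25 ± 0.069, 0.0152), which neither DESeq2 (0.174) nor the stricter gate (0.0572) called, and Dock5 (0.25 ± 0.12, 0.111) and Arhgef17 (0.03 ± 0.086, 0.779, -0.20 with cells thinned to 2000 UMIs) were not called. Among cells with no cycle gene Dock5 was called higher in EYFP+ cells (adjusted p = 0.0285). With each cell thinned to 2000 UMIs, Ankrd1, Crim1, Nuak2, Myof and Nt5e were still called, while Axl (0.43, adjusted p = 0.448), Fjx1 (0.53, 0.296) and F3 (-0.12, 0.673) were not. Without the mouse block Ankrd1 (0.0649), Myof (0.0629) and F3 (0.437) lost their calls.

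Levels by number of EYFP UMIs (0, 1, 2, and 3 or more) were not tested, and no share over all genes was taken. From 0 to 1, Nt5e stepped down in both mice and F3 stepped up in KO 1 alone. The other members stepped up in both mice, some by little, such as Arhgef17 from 37.2 to 39.2 in KO 1. Nuak2 went from 12.4 over 28.2 and 31.3 to 36.6 in KO 1 and from 12.9 over 27.1 and 39.7 to 38.6 in KO 2. Nt5e went from 15.2 over 8.61 and 8.83 to 5.6 in KO 1 and from 15.7 over 10.9 and 5.07 to 3.36 in KO 2, lower in every class with a reporter UMI than in cells with none. Ankrd1 did not climb past its first step in KO 1, going from 262 over 496 and 476 to 418 in KO 1 and from 197 over 324 and 489.6 to 329.8 in KO 2. Myof went from 166 over 230.0 and 269 to 261 in KO 1 and from 132 over 201 and 222 to 216 in KO 2, and Axl from 15.1 over 22.5 and 26.5 to 29.3 in KO 1 and from 10.1 over 23.7 and 35.5 to 24.6 in KO 2. The classes differ in depth as well, with medians of 8370.5, 11273 and 16687 UMIs in KO 1 and 8238, 10487 and 17981 in KO 2 for 1, 2 and 3 or more. Cells with no EYFP UMI had medians of 7225 and 7104 UMIs, below those with 1. Nuak2 stood above the EYFP = 0 level in cells with 1 EYFP UMI in both mice, and the part of depth in this step was not tested.

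**Figure D3:**
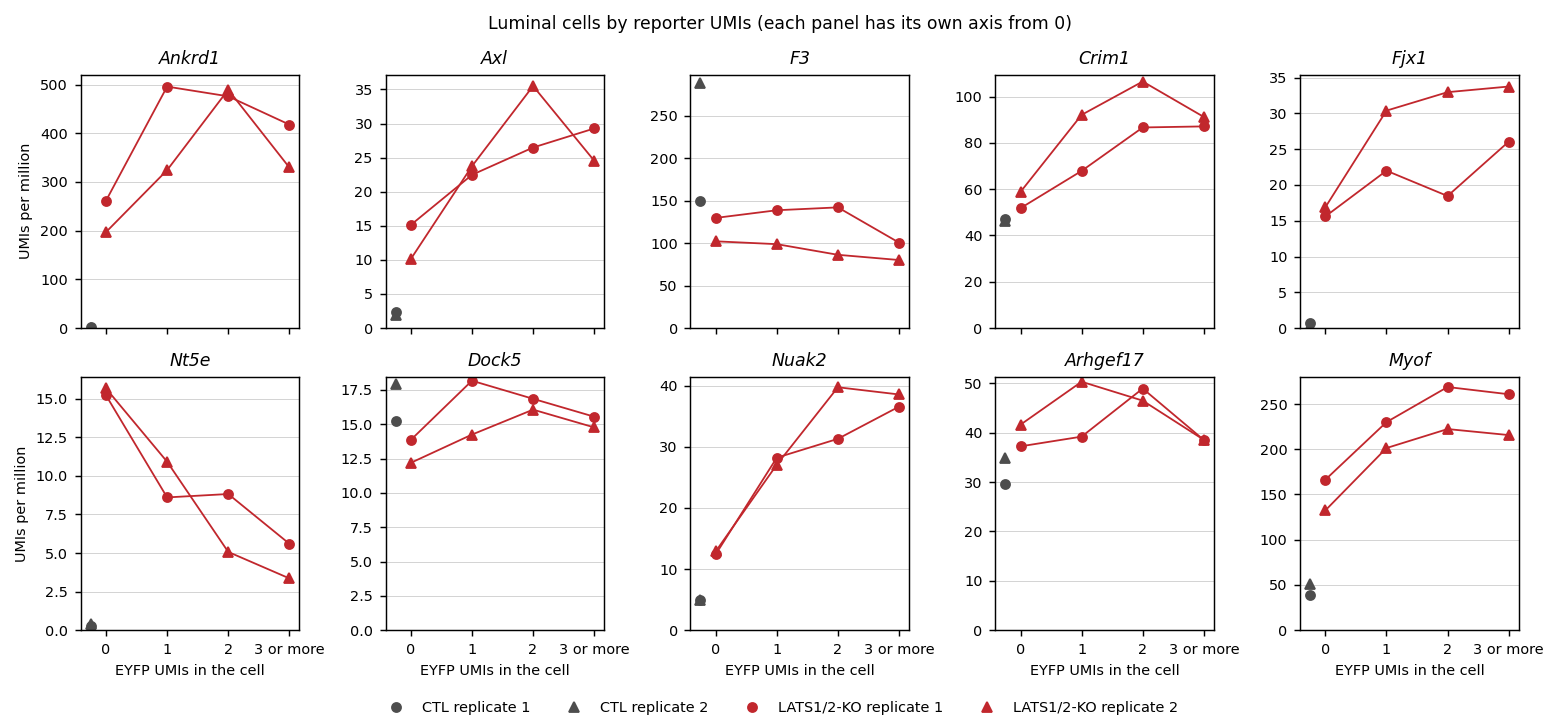
CPM (vertical, from 0) of each of the 10 genes in KO luminal cells with 0, 1, 2 and 3 or more EYFP UMIs (horizontal), 1 line per KO library, with the 2 CTL luminal values in grey. Nuak2 steps up at 1 UMI (12.4 to 28.2 in KO 1 and 12.9 to 27.1 in KO 2), Nt5e steps down, and the class with none already lies above CTL for Ankrd1, Axl, Fjx1, Nt5e, Nuak2 and Myof.

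EYFP = 0 luminal cells of the KO glands also differed from CTL luminal cells, which are the same controls as above. Unresolved cells were 686 of 2427 and 579 of 2063 of the former and 210 of 4292 and 110 of 3123 of the latter. The comparison thus mixes differences within luminal types with differences in their shares, and it was not tested within a type. In the pooled sums 6 genes rose and 2 fell (background 50%, and 68.6% of all calls higher with library totals in place of 52.1%). Ankrd1 (6.71 ± 0.69, adjusted p = 0.0014), Nt5e (5.35 ± 0.22, 0.000158), Fjx1 (4.94 ± 0.40, 0.000723), Axl (2.36 ± 0.26, 0.00171), Myof (1.52 ± 0.18, 0.00192) and Nuak2 (1.15 ± 0.14, 0.00228) rose. F3 (-1.13 ± 0.31, 0.0286) and Dock5 (-0.56 ± 0.14, 0.0221) fell, but without KO 2 neither was called (0.105 and 0.0649), nor was Dock5 without CTL 2 (0.119) or either gene with library totals (0.0528 and 0.0914). Crim1 (0.02 ± 0.10, 0.887) and Arhgef17 (0.08 ± 0.12, 0.619) stayed without a call, and their signs turned when a library was left out. Limited to cells with none of the 8 cycle genes in both groups, Ankrd1, Axl, Fjx1, Nt5e, Nuak2 and Myof rose and none fell (background 41.4%), with Ankrd1 at 133 and 159.8 in KO against 3.26 and 0.514 in CTL (6.01 ± 0.64, 0.00157).

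The reporter effect was also taken within each luminal type. These tests were run with no alternative for depth, gate, fit or left-out library. In KO 1 and KO 2, the ER+ sums rest on 56 and 55 EYFP+ and 414 and 110 EYFP = 0 cells. In ER+ cells 5 of 8 members tested were higher in EYFP+ cells and 1 lower (background 18.2%). Axl stood at 4.38 and 4.24 without and 33.8 and 38.0 with EYFP there (log2 fold change 2.95 ± 0.41 SE, adjusted p = 2.9e-07), and the EYFP = 0 level was close to the 4.45 and 3.16 of CTL ER+ cells. Ankrd1 went from 29.3 and 3.4 to 119.7 and 28.2 (2.10 ± 0.24, 3.29e-09), Nuak2 from 7.11 and 8.49 to 33.8 and 56.4 (2.39 ± 0.32, 1.86e-07) and Crim1 from 23.2 and 16.1 to 72.8 and 89.4 (1.90 ± 0.23, 1.36e-08). Nuak2 in EYFP = 0 ER+ cells likewise lay near its CTL level of 7.62 and 6.62. Myof was raised in the EYFP = 0 cells already, 245 and 217 against 59.6 and 89.9 in CTL, and went on to 389 and 407 (0.73 ± 0.12, 6.99e-06), and F3 was lower (-0.61 ± 0.16, 0.00482). In ER- cells 6 were higher and 2 lower (background 23.3%), with Nuak2 (1.44 ± 0.19, 1.75e-05), Fjx1 (0.98 ± 0.17, 0.000429) and Ankrd1 (0.86 ± 0.11, 1.19e-05) the most raised and Nt5e lower (-0.85 ± 0.21, 0.00646). In unresolved cells Nuak2 (0.69 ± 0.12, 4.44e-07) and Myof (0.29 ± 0.074, 0.00187) were higher and Nt5e lower (-1.88 ± 0.23, 1.02e-13), 3 of 10 (background 9.64%), and Ankrd1 was not called (0.09 ± 0.072, 0.577). Between types these effects were set side by side and their difference was not tested.

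Cycling cells were those with a UMI of at least 4 of Ube2c, Birc5, Cdk1, Cdca8, Ccnb1, Cdc20, Top2a and Mki67, and non-cycling cells had none of the 8. The KO glands held 692 and 492 cycling luminal cells and 1445 and 1680 non-cycling ones, and the CTL glands 19 and 52 and 3901 and 2672. Cycling KO cells were deeper, with a median of 16584.5 and 20518.5 UMIs against 6144 and 6423.5, and a rule that counts detected genes favours deep cells. Free RNA made up 5.88 and 5.17% of the UMIs of cycling and 10.4 and 9.37% of those of non-cycling cells. Both classes pool the luminal types, and their make-up by type was not taken. Differences within types and differences in their shares are therefore not told apart here. Of the 10 genes, 3 were higher in cycling cells and 2 lower, where 59.6% of all genes tested were called (30.0% higher, 29.6% lower), and the members' median was -0.02 beside -0.0198 over all genes. Ankrd1 rose from 164 and 197 in non-cycling to 478 and 331 in cycling cells (log2 fold change 1.25 ± 0.12 SE, adjusted p = 4.03e-09), and Fjx1 from 9.89 and 15.7 to 24.5 and 32.9 (1.27 ± 0.13, 8.13e-09). Crim1 was a little higher (0.32 ± 0.10, 0.00662), a call that DESeq2 (0.127), library totals (0.0629) and the fit without mouse block (0.0974) did not make. Nt5e fell from 18.5 and 13.8 to 6.52 and 4.52 (-1.45 ± 0.17, 1.14e-07) and F3 from 154 and 111 to 95.5 and 72.0 (-0.56 ± 0.10, 2.4e-05), the latter without a call when the mouse block was left out (0.0667). Axl (0.06 ± 0.14, 0.718, and -0.04 with library totals), Nuak2 (-0.20 ± 0.13, 0.201), Myof (-0.18 ± 0.10, 0.111), Dock5 (-0.05 ± 0.17, 0.803, and 0.25 with thinned cells) and Arhgef17 (0.01 ± 0.10, 0.963, and -0.10 with library totals) were not called. With cells thinned to 2000 UMIs, which left 219 and 129 cycling cells, Ankrd1 alone stayed called, and Fjx1 stood at 0.02 (adjusted p = 0.987) while Nt5e stood at -1.79 (0.0829). Library totals moved the median gene to -0.124, and Myof was then called lower (-0.28, 0.0192).

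EYFP+ and cycling overlap, so the 4 classes were compared together. Each of these classes also pools the luminal types. Ankrd1 held 133 and 159.8 in EYFP = 0 non-cycling, 267 and 281 in EYFP+ non-cycling, 448 and 299 in EYFP = 0 cycling and 516 and 356 in EYFP+ cycling cells. It was lowest in both mice where cells had neither mark and highest where they had both. Nuak2 held 9.27 and 12.7, 48.6 and 46.6, 13.8 and 10.4 and 19.98 and 22.3 in the same order, and Myof 174 and 122, 339 and 289.8, 158 and 149 and 174 and 153. Both were highest in EYFP+ cells outside the cycle. Nt5e, in the same order, held 20.4 and 16.5, 11.9 and 7.85, 8.30 and 7.60 and 4.19 and 2.16, highest with neither mark and lowest with both. The EYFP effect was smaller in cycling cells for Nuak2 (log2 difference -1.30 ± 0.26, adjusted p = 0.0116), Myof (-0.99 ± 0.14, 0.00165) and Crim1 (-0.67 ± 0.14, 0.0132), and F3 went the other way (0.62 ± 0.15, 0.0284), 4 of 10 where 6.14% of genes passed. DESeq2 did not call F3 (0.0636). Within EYFP+ cells alone, Ankrd1 (0.72 ± 0.11, 1.04e-07) and Fjx1 (0.79 ± 0.16, 3.65e-05) were higher in cycling cells, and Nt5e (-1.58 ± 0.34, 0.000102), Nuak2 (-1.07 ± 0.14, 1.08e-08), Myof (-0.86 ± 0.10, 2.78e-10) and Axl (-0.57 ± 0.16, 0.00207) were lower (background 47.2%).

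**Figure D4:**
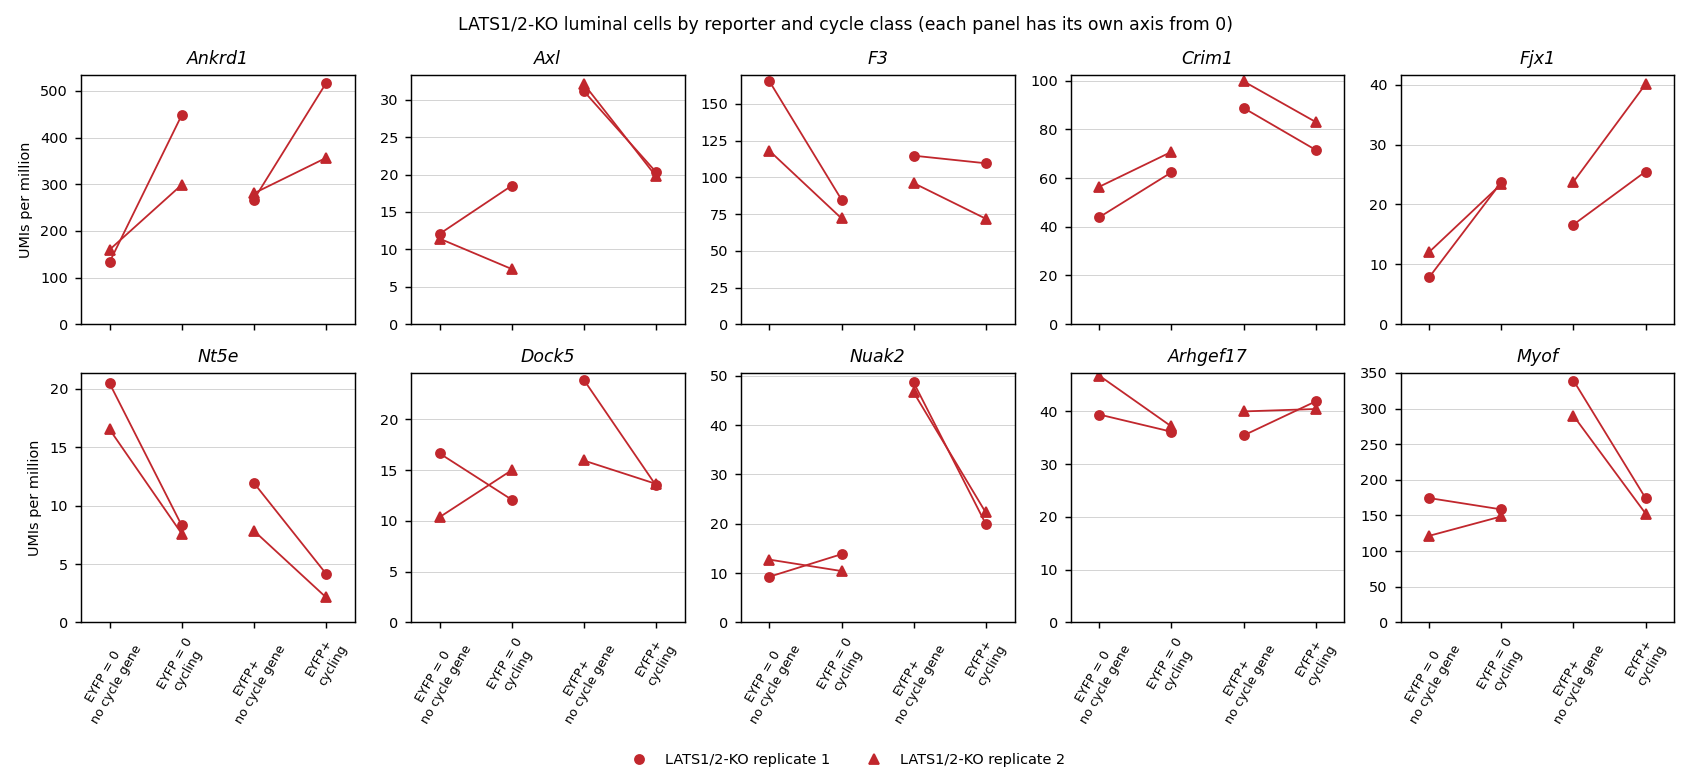
CPM of each of the 10 genes (vertical) in 4 classes of KO luminal cells (horizontal), EYFP = 0 or EYFP+ and with no cycle gene or cycling, with circles for KO 1 and triangles for KO 2. Ankrd1 is lowest with neither mark (133 and 159.8), Nuak2 and Myof peak in EYFP+ cells with no cycle gene (48.6 and 46.6 and 339 and 289.8), and Nt5e is lowest in EYFP+ cycling cells (4.19 and 2.16).

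Shares of luminal cells with a UMI show how widely each gene was detected, and are given with exact Clopper-Pearson 95% intervals, which cover counting error alone. Ankrd1 was found in 1.35% (1.03 to 1.74) and 0.576% (0.342 to 0.909) of CTL and 35.4% (33.7 to 37.1) and 33.0% (31.2 to 34.7) of KO luminal cells. Among KO lymphocytes, which should lack Ankrd1, the shares were 4.35% (0.110 to 21.9) and 4.23% (0.880 to 11.9), at a median depth of 1732 and 2420.0 UMIs against 8282.5 and 8843 in KO luminal cells. Thinned to 2000 UMIs per cell, the Ankrd1 shares were 0.583 and 0.0654% in CTL and 20.3 and 18.2% in KO. The gene with the largest rise was thus detected in a minority of KO luminal cells. Myof was found in 26.0% (24.7 to 27.4) and 32.4% (30.8 to 34.1) of CTL and 60.6% (58.8 to 62.3) and 57.4% (55.5 to 59.2) of KO cells. Fjx1 was found in 0.652% (0.434 to 0.941) and 0.256% (0.111 to 0.504) of CTL and 12.2% (11.0 to 13.4) and 16.1% (14.8 to 17.5) of KO cells. F3, widely detected in CTL at 52.1% (50.5 to 53.6) and 67.4% (65.7 to 69.0), stood at 46.8% (45 to 48.5) and 45.2% (43.3 to 47.0) in KO. These shares carry no test.

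The other 12 genes of the list give the wider setting. Foxf2 was never tested. In luminal cells 9 of the 11 tested rose and 2 fell, among them Ctgf (log2 fold change 6.11), a secreted matricellular protein and a standard YAP/TAZ readout, Igfbp3 (6.08), Ccdc80 (3.21), Asap1 (2.40), Ptpn14 (2.06), Amotl2 (1.53), Tgfb2 (1.25), Lats2 (0.79) and Cyr61 (0.47), while Gadd45a (-0.89) and Rbms3 (-0.76) fell. In ER- cells 6 rose and 1 fell, in ER+ cells 6 rose and 1 fell, and in basal cells 2 of 10 rose and 2 fell. The backgrounds given above were 59.0% in luminal, 53.4% in ER-, 29.6% in ER+ and 27.2% in basal cells. Between EYFP+ and EYFP = 0 luminal cells 7 were higher and 2 lower (background 39.7%), and Igfbp3, like Nt5e, was lower with EYFP (-0.70) although it rose against CTL. In cycling against non-cycling cells 4 were higher and 3 lower, close to the background of 59.6%, and within EYFP+ cells none was higher and 8 were lower (background 47.2%). Ankrd1 and Fjx1 were thus the 2 genes of the whole list that were called higher in cycling EYFP+ cells.

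Genes with the most similar pattern were listed for each member by Pearson's r of log2 CPM over the 32 sums of a library and lineage with at least 20 cells, as a description only, since sums of 1 library share its depth and free RNA. Ankrd1 lay nearest to Ccar1 (0.88), Slc25a48 (0.87) and Ccnb1 (0.84), the last a mitotic cyclin that was part of the cycling rule. Axl lay nearest to Pdpn (0.91), Antxr1 (0.88) and Medag (0.87), which are known in fibroblasts. For F3 the nearest were Gna14 (0.88), Smim1 (0.85) and Irs1 (0.84), for Crim1 Ier5l (0.85), 2900026A02Rik (0.82) and Utrn (0.80), for Fjx1 Adamts5 (0.82), Lamb1 (0.81) and Calu (0.80) and for Nt5e Atp1b3 (0.83), Arhgef1 (0.81) and Ptpre (0.79). For Dock5 they were Hps1 (0.81), Ppif (0.78) and Cln6 (0.74), for Nuak2 Arpc4 (0.85), Adam8 (0.80) and Ap1b1 (0.79), for Arhgef17 Plekhh3 (0.92), Ift43 (0.90) and Vcl (0.90) and for Myof Cul4a (0.91), Anxa3 (0.90) and H1f0 (0.90). Among the 10 genes themselves the highest r was 0.59, between Axl and Fjx1, and the lowest -0.65, between Nt5e and Arhgef17.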

How the data were processed

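Single cells of 4 mice were measured as UMI counts. Per the file headers the authors made the deposited counts with cellranger-6.1.2, whereas the submitters' notes list Cell Ranger 3.1.0 and mm10, and replicates were not pooled. Following the study's limits, cells with over 500 genes and under 20% mitochondrial UMIs were kept, and doublets were not called. Cells were gated per library by marker lists. Stromal gates took at least 2 markers above the library level and a summed level of at least 3 times it. The basal gate took at least 3 markers and the same summed level. Luminal ER- and ER+ gates took at least 3 markers, more than of the other list, with no limit on the summed level. The summed epithelial list had to reach 0.15 times the library level in basal and 0.3 times in luminal cells. Cells with epithelial and stromal markers or a tie (66 to 145 per library) and cells that reached no list (54 to 402) were left out. The limits were set after the marker distributions were seen.

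UMIs were summed per library and class of at least 20 cells and tested with edgeR 4.0.16 (R 4.3.3) quasi-likelihood fits (TMM, filterByExpr, Benjamini-Hochberg over all genes tested, threshold 0.05), with the mouse as a block within the KO glands, and DESeq2 1.42.0 as an alternative. Free RNA was estimated from collagen genes in epithelial classes and from luminal genes elsewhere. Thinning drew 2000 UMIs per cell, classes were set anew on the thinned counts, and shallower cells were left out. Sums were made in Python 3.11.15. The tests were also run on simulated sums with few changed genes, as many higher as lower, and a fixed spread. That setting differs from these data, where many genes were called, so it does not check the scaling or the tests here.

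The members and gene lists were chosen with earlier results of these data known. Values are given for the 10 genes in each comparison, for Lats1, Lats2 and EYFP as a label check, for called genes among the 12 other targets, and for the 3 most similar genes per member. Alternatives for normalization, filter, gate, depth, mitochondrial limit, free RNA, block and each left-out library were planned. The reporter comparison per luminal type, cycling within EYFP+ cells, non-cycling and basal EYFP = 0 cells, and scaling to library totals were added after seeing the data. No alternative was run for the added comparisons of cell classes.

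Replicate numbers 1 and 2 were not taken as pairs: deviations of same-numbered mice from their group means correlated at -0.0942 in luminal, -0.0311 in ER-, -0.0248 in ER+ and 0.012 in basal sums. Intervals cover counting error alone.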

Additional observations from a re-analysis of the deposited data

Results flagged for a closer look

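The difference of KO against CTL was not the same between lineages for the following members. This was a test of the difference itself (edgeR's lineage by condition term, log2 scale), and the values are descriptions with no explanation weighed. Luminal minus basal effects were 5.45 for Fjx1, 3.93 for Ankrd1, 3.16 for Nt5e, 2.27 for Axl, 1.69 for Nuak2 and 0.73 for Myof. Luminal minus fibroblast effects were 5.29 for Nt5e, 4.48 for Fjx1, 2.22 for Axl and 1.42 for F3. Luminal minus endothelial effects were 1.39 for Myof and 1.02 for Crim1, whose luminal sum pools a fall in ER- and a rise in ER+ cells. ER- minus ER+ effects were 2.98 for Nt5e and -1.82 for Crim1, the latter with opposite signs in the 2 types. The effect of the reporter in cycling minus non-cycling cells was 0.62 for F3, -0.67 for Crim1, -0.99 for Myof and -1.30 for Nuak2. Groups of 2 mice were too small to look for single samples far from the others.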

How the results depend on the processing

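Of 144 counts of called members under an alternative, 129 stayed within 1.5 times the count reported, 12 were lower and 3 higher, and of 144 counts over all genes 113 stayed, 24 were lower and 7 higher. Called members in ER+ cells went from 8 to 4 under the stricter gate and 5 with free RNA subtracted, and ranged from 4 (without KO 2) to 8 when a library was left out. In basal cells 4 became 1 with DESeq2 and 2 both with free RNA subtracted and at equal depth, in endothelial cells 3 became 1 with DESeq2, and in fibroblasts 1 became 2 with the replicate block and ranged from 0 (without CTL 1) to 2 (without KO 2). EYFP calls went from 8 to 5 without the replicate block and to 5 with thinned cells, cycling calls from 5 to 3 without the block and to 1 with thinned cells, and luminal against endothelial calls from 2 to 4 without the low-count filter. The block changed no other count of called members by over 1.5 times, and with it Crim1 in luminal cells and Dock5 in ER+ cells lost their calls and Myof in fibroblasts gained one. Thinning leaves fewer UMIs and fewer cells, and the cause of the other changes was not tested.

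Over all genes, ER+ calls (3684) ranged from 1882 to 2165 without CTL 1, KO 1 or KO 2. Basal calls (2507) came to 1143 with DESeq2, 1536 with free RNA subtracted and 1667 at equal depth. Fibroblast calls (463) came to 944 without the filter, 982 with the replicate block, 240 at equal depth, 2 without CTL 1, 24 without CTL 2, 729 without KO 1 and 712 without KO 2. Endothelial calls (483) came to 257 with DESeq2 and 787 without CTL 1, and lymphocyte calls (48, with 302 genes at an unadjusted p under 0.05) to 97 without the filter, 30 with DESeq2, 16 with free RNA subtracted, 24 at equal depth and 0 without either KO library. EYFP calls (5209) came to 2082 with DESeq2, 992 without the block and 1385 with thinned cells, and cycling calls (7533) to 4082 with DESeq2 and 2004 with thinned cells. DESeq2 gave 838, 974, 1340 and 390 in place of 1907 (luminal minus basal), 1623 (luminal minus fibroblast), 2132 (ER- minus ER+) and 737 (reporter by cycling), the last 1331 without the filter.

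Signs turned in values that had no call in the report. Arhgef17 stood at 0.22 in ER- cells with library totals, at -0.20 for EYFP with thinned cells and -0.20 in cells with no cycle gene, and for cycling at -0.10 with library totals, -0.019 with free RNA subtracted, -0.37 with thinned cells, -0.0056 with at least 3 cycle genes and -0.15 in EYFP = 0 cells. Left-out libraries gave Arhgef17 -0.022 to 0.19 in luminal and -0.039 to 0.18 in EYFP = 0 luminal cells. Dock5 stood at -0.0099 in ER- cells under the stricter gate, and for cycling at 0.25 with thinned cells and 0.066 in EYFP = 0 cells, where Nuak2 stood at 0.24 and Myof at 0.14. Axl stood at -0.038 for cycling with library totals. Crim1 in EYFP = 0 luminal cells against CTL stood at -0.0044 without the filter and -0.083 with a 10% mitochondrial limit, and ranged from -0.055 to 0.076 over left-out libraries. Nuak2 in basal cells stood at -0.27 with a 10% mitochondrial limit and -0.27 with free RNA subtracted, and ranged from -0.16 to 0.43. Left-out libraries gave Fjx1 -0.75 to 0.21 in basal cells and -0.055 to 1.37 in fibroblasts, and Crim1 -1.09 to 0.27 in fibroblasts. The stricter gate was not run for lymphocytes.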
